A study of Rattus norvegicus with 20 samples.

Results

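The genes described here encode the carnitine shuttle and the enzymes of mitochondrial fatty acid beta-oxidation, as read from the livers of male Sprague-Dawley rats that ate 4 diets differing in protein source. They are the 10 genes Cpt1a, Cpt2, Slc25a20, Acadvl, Acadl, Acadm, Hadha, Hadhb, Hadh and Acaa2, of 13462 genes with values on the array. Every probe set whose platform annotation gives 1 of these symbols was taken, which yielded 15 probe sets, 14 of them with values, of 27702 with values in all. The remaining probe set, a second for Hadh, has no value in the table used here. All 10 genes had a value on every array, and no filter on low values was applied. Each gene is given by its brightest probe set, and other probe sets are named where they are used.

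The rats arrived at 4 weeks of age, adapted for 5 days on a commercial diet and then ate an experimental diet for 21 days with free access. The 3:1 high-isoflavone diet drew its protein from casein and the high-isoflavone soybean Yukipirika in the ratio 3 to 1, and the 1:1 high-isoflavone diet drew it from both in equal shares. The conventional soybean diet drew equal shares from casein and the cultivar Fukuyutaka, and the casein diet held 200 g/kg casein. There were 7, 8, 7 and 7 rats on the 3:1 high-isoflavone, 1:1 high-isoflavone, conventional soybean and casein diets, and 5 of each with an average food intake were measured, so that the 20 arrays are 20 separate rats. The cultivars can differ in more than isoflavones, so that cultivar and isoflavone content cannot be told apart between the conventional and the 1:1 high-isoflavone diet. Neither the hour of sampling nor a fast before it is stated in the sources used here.

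Fatty acids are burned in the mitochondrial matrix, which long-chain acyl-CoA cannot enter unaided. Carnitine palmitoyltransferase 1 on the outer membrane moves the acyl chain onto carnitine, a carrier takes the acylcarnitine through the inner membrane, and carnitine palmitoyltransferase 2 returns the chain to CoA. Each turn of the spiral that follows then has a dehydrogenation, a hydration, another dehydrogenation and a thiolytic cleavage that releases acetyl-CoA. In liver the pathway is known for its rise in fasting, for its inhibition by malonyl-CoA at the first step and for its control by the nuclear receptor PPAR-alpha, which binds DNA with RXR at a repeat of the hexamer AGGTCA. Much of the acetyl-CoA made in fasting liver leaves as ketone bodies.

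Promoter sequences, from 250 bases before to 50 bases after the first transcribed base, were taken from RefSeq on build GRCr8 for the 8 of the 10 genes that the table held. Acadl and Acaa2 are named only. Hadha and Hadhb, the genes of both subunits of the trifunctional protein, lie head to head on chromosome 6 with 300 bases between their first transcribed bases, Hadha on the plus strand and Hadhb on the minus strand. Their promoter windows share 200 bases, shown in capitals in the plus-strand sequence of the stretch between the starts, chr6:31907501-31907800, because these are the members that a common DNA stretch joins.
Hadhb to Hadha: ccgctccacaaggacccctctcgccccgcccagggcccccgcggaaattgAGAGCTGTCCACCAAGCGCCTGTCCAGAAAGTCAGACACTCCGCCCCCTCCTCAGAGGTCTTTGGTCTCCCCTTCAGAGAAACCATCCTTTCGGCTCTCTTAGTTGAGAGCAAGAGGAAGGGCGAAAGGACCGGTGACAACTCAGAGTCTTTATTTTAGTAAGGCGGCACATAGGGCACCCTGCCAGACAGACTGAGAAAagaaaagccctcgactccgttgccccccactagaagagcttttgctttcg
The G and C content of the whole stretch was 57.0%. Of all 33469 promoters of the table, 3105 (9.28%) share bases of their window with a gene that lies head to head.

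The motif searched was 2 copies of AGGTCA that run the same way with 1 base between them, on both strands. Sites outside the promoter windows were not searched, and the windows of Hadha and Hadhb, both counted among the 8, share 200 bases. No promoter of the 8 genes held the motif without a mismatch, against 0.0538% of all promoters. With up to 1 mismatch over the copies it was in 1 of 8, against 0.439% of all promoters, and with up to 2 mismatches in 2 of 8, against 3.77%. An exact AGGTCA alone was in 2 of 8, Acadvl and Hadhb, against 16.2% of all promoters. The match in Acadvl had 1 mismatch and began 17 bases before the first transcribed base (chr10:55236710-55236722, minus strand). The match in Slc25a20 had 2 mismatches and began 15 bases after the first transcribed base (chr8:118243588-118243600, plus strand). Both are shown with the hexamer copies in capitals and the base between them in lower case.
Acadvl: AGGTCAgTGGTCA
Slc25a20: AGGTGAaAGGTCG

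Levels are log2 of the signal, so that a difference of 1 is a 2-fold difference, and levels of different genes are not compared, because each probe set has its own response. The median over all probe sets of an array was 2.43 to 2.53 on the 3:1 high-isoflavone arrays, 2.45 to 2.57 on the 1:1 high-isoflavone arrays, 2.51 to 2.56 on the conventional soybean arrays and 2.43 to 2.49 on the casein arrays, so that the conventional soybean and casein arrays did not overlap. Casein rat 5 and 3:1 rat 1 had a higher floor than the other 18 arrays. The defining hepatocyte markers were bright, with Alb, the albumin gene, at a mean of 10.18 log2 and above all but a few of the probe sets. In whole liver, fewer cells of a type and less RNA per cell cannot be told apart.

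No beta-oxidation gene passed the test in any of the 5 comparisons, which was limma fitted across all probe sets, with a call at a Benjamini-Hochberg adjusted p under 0.05. For the conventional soybean diet against casein, 0 of 10 genes were called, where 1.64% of all probe sets were, and 4 of 10 had an unadjusted p under 0.05, where 16.84% of all probe sets did. All 4 (Cpt1a, Cpt2, Acadl and Hadha) had lower means on conventional soybean. For the 3:1 high-isoflavone diet against casein, 0 of 10 were called, where 0.0397% of all probe sets were, and 0 had an unadjusted p under 0.05, where 8.119% did. For the 1:1 high-isoflavone diet against casein, 0 of 10 were called, where 2.21% were, and 2 (Hadh and Acaa2) had an unadjusted p under 0.05, both with higher means on the 1:1 diet, where 16.75% of all probe sets had one. For the 1:1 high-isoflavone against the conventional soybean diet, 0 of 10 were called, where 0.0758% were, and 4 (Cpt1a, Cpt2, Hadha and Hadhb) had an unadjusted p under 0.05, all with higher means on the 1:1 diet, where 7.072% of all probe sets had one. For the 1:1 against the 3:1 high-isoflavone diet, 0 of 10 were called, where 0.0% were, and 0 had an unadjusted p under 0.05, where 7.22% did. All 10 genes are brighter than the median probe set. When limma was fitted to the 13851 brighter probe sets only, 2941 had an unadjusted p under 0.05 for conventional soybean against casein. The count was 1358 for the 3:1 and 2827 for the 1:1 diet against casein. It was 1180 for the 1:1 against the conventional soybean diet and 1135 for the 1:1 against the 3:1 diet.

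The median difference of the 10 genes was −0.16 log2 on conventional soybean against casein, beside 0.06 over all probe sets, with 7 of 10 below 0. It was −0.04 for the 3:1 high-isoflavone diet against casein, beside 0.01, and 0.05 for the 1:1 high-isoflavone diet against casein, beside 0.04. For the 1:1 high-isoflavone against the conventional soybean diet all 10 differences were above 0 with a median of 0.15, beside −0.02 over all probe sets. The smallest of them, Acadm at 0.01, turned negative (−0.01 to −0.05) when each of 5 single arrays was left out. For the 1:1 against the 3:1 diet the median was 0.11, beside 0.03. Centring and scaling of each array moved the median to −0.28 for conventional soybean against casein, with 9 of 10 below 0, and turned it to −0.08 for the 1:1 diet against casein, with 7 of 10 below 0 in place of 4, beside −0.02 over all probe sets in both. Leaving out casein rat 3 turned the median of the 3:1 diet against casein to 0.01, with 4 of 10 below 0 in place of 7. The comparisons share arrays, conventional soybean and casein each entering more than 1 of them, so that these values are not independent of each other. The 10 genes were read in the same rats and most pairs varied together within diets, so their signs are not 10 separate observations.

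**Figure D1:**
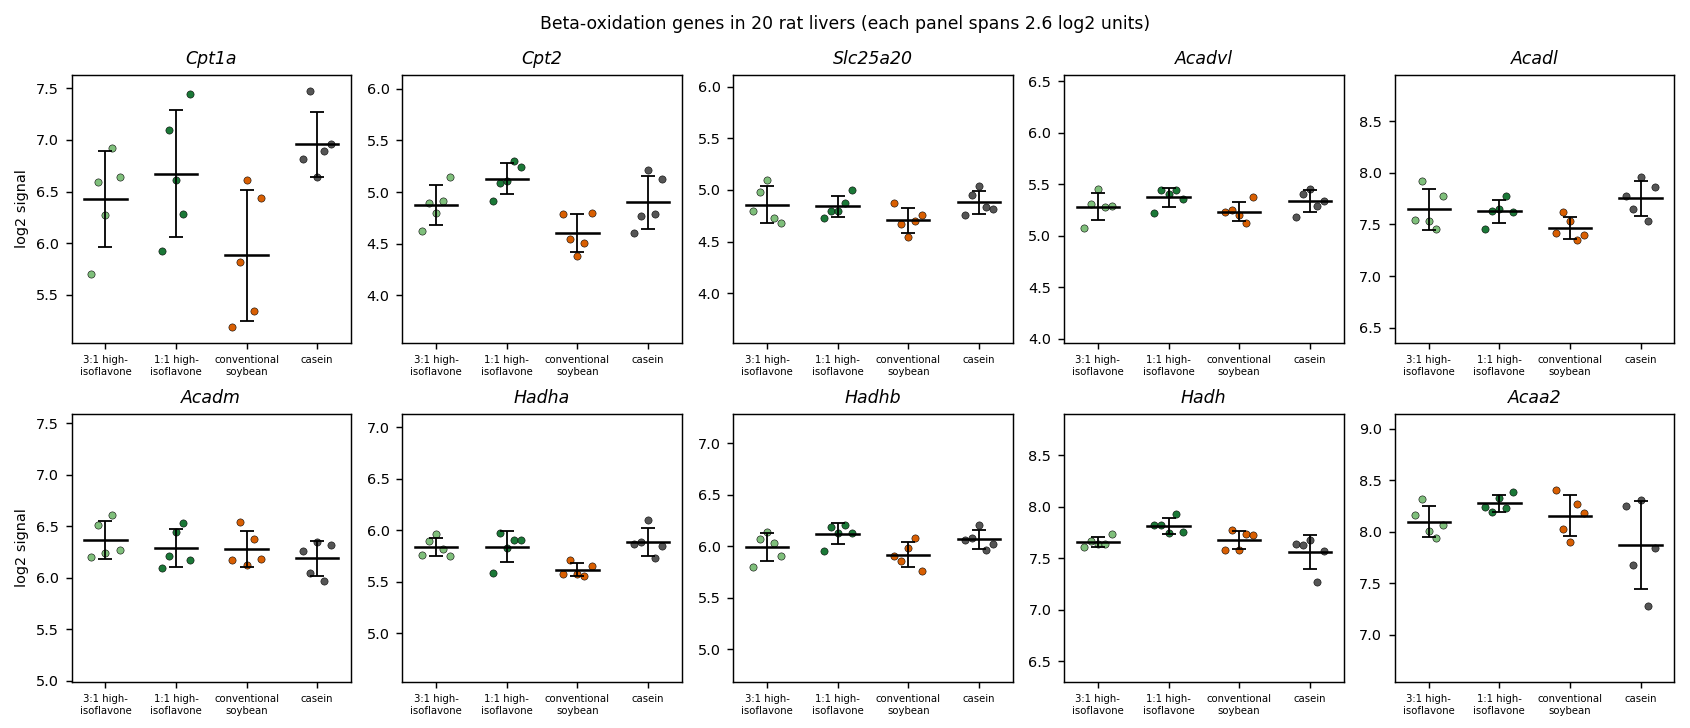
Level of each of the 10 genes in log2 signal for every rat (points) on the 3:1 high-isoflavone, 1:1 high-isoflavone, conventional soybean and casein diets, with the mean (line) and SD (bars) of the 5 rats; every panel spans the same height. Cpt1a varies most between rats, and its 5 conventional soybean rats (5.19 to 6.61) lie below all 5 casein rats (6.64 to 7.48).

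Cpt1a encodes the liver form of carnitine palmitoyltransferase 1, the step that malonyl-CoA inhibits. Its level was 5.70, 6.59, 6.27, 6.92 and 6.64 log2 in the 5 rats on the 3:1 high-isoflavone diet. It was 5.92, 7.10, 6.61, 6.28 and 7.45 on the 1:1 high-isoflavone diet. It was 5.19, 5.82, 6.61, 5.34 and 6.44 on conventional soybean, against 6.82, 7.48, 6.64, 6.89 and 6.96 on casein. Every conventional soybean rat was below every casein rat, while both high-isoflavone groups overlapped with both other groups. The order of the means was casein, 1:1 high-isoflavone, 3:1 high-isoflavone and conventional soybean, and the rats of neighbours in that order overlapped in each case. The means were 6.42 ± 0.468 on the 3:1 diet, 6.67 ± 0.615 on the 1:1 diet, 5.88 ± 0.635 on conventional soybean and 6.96 ± 0.316 on casein (SD, n = 5 each). The conventional soybean diet differed from casein by −1.08 log2 (SE 0.293, 95% interval −1.69 to −0.47), a ratio of 0.474, with a limma adjusted p of 0.0648, which did not pass. It passed under 6 of 30 other settings, over which the adjusted p ran between 0.0221 and 0.150 and the difference between −1.26 and −0.91. The settings that passed were centring and scaling of each array, testing only the brighter probe sets, a replicate block (adjusted p 0.0221) and leaving out conventional soybean rat 3, 1:1 rat 1 or 1:1 rat 5.

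A second Cpt1a probe set, dimmer than the first, ran the same way. It was at 1.76, 1.94, 2.55, 1.52 and 2.54 log2 on conventional soybean, against 2.78, 3.36, 2.65, 2.93 and 2.99 on casein. These rats did not overlap either, and the difference was −0.88 (limma adjusted p 0.0702). Over the 20 arrays the pair of probe sets had a Pearson correlation of 0.92, and of 0.87 with diet means removed. The 3:1 high-isoflavone diet differed from casein in Cpt1a by −0.53 (95% interval −1.14 to 0.07) and the 1:1 diet by −0.29 (−0.89 to 0.32). The 1:1 diet differed from conventional soybean by 0.79 (0.18 to 1.4, limma adjusted p 0.566) and from the 3:1 diet by 0.25 (−0.36 to 0.86).

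Among all probe sets, 4.62% had conventional soybean and casein rats that did not overlap, and among the 10 genes 2 did, Cpt1a and Hadha, both lower on conventional soybean. The share was 1.81% for the 3:1 high-isoflavone diet against casein, where 0 of the 10 genes did, and 4.45% for the 1:1 high-isoflavone diet against casein, where Hadh did. It was 1.4% for the 1:1 high-isoflavone against conventional soybean, where Cpt2 did, and 1.14% for the 1:1 against the 3:1 diet, where Hadh did. The summed level of the 8 hepatocyte markers measured of 8 listed was 12.22 to 12.42 log2 on conventional soybean, against 12.42 to 12.49 on casein. The sums of the 9 other marker lists overlapped between these diets. Skeletal muscle (4 of 4 markers) was at 4.10 to 5.42 on conventional soybean, against 4.17 to 5.22 on casein. Adipose tissue (2 of 4 markers) was at 4.08 to 4.61, against 4.41 to 5.02. Its measured markers were Cidec, at a mean of 4.39 log2, and Plin1, at 1.74, so that most of that sum was Cidec. Some markers were dim, such as S100a8 and Plin1, each at a mean of 1.74 log2 and brighter than only 21.2% of the probe sets. A sum therefore does not show that a cell type was present, and the part of these levels in the differences was not tested.

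Cpt2 encodes the inner-membrane transferase that hands the chain back to CoA. Its level was 4.62, 4.89, 4.80, 4.91 and 5.15 log2 on the 3:1 high-isoflavone diet. It was 4.91, 5.09, 5.11, 5.30 and 5.24 on the 1:1 high-isoflavone diet, against 4.79, 4.54, 4.38, 4.51 and 4.80 on conventional soybean. It was 4.60, 4.77, 5.21, 4.79 and 5.13 on casein. Every 1:1 rat was above every conventional soybean rat, and the 3:1 and casein rats overlapped with both groups. The 1:1 diet exceeded conventional soybean by 0.53 log2 (SE 0.124, 95% interval 0.27 to 0.78), a ratio of 1.44. This had the smallest unadjusted p of any member in any comparison (0.000358), with a limma adjusted p of 0.150, and it passed under none of the 30 other settings (adjusted p 0.0869 to 0.421). Against casein, the conventional soybean diet differed by −0.30 (−0.55 to −0.04), the 1:1 diet by 0.23 (−0.03 to 0.49) and the 3:1 diet by −0.02 (−0.28 to 0.23). In the order of the means, 1:1 high-isoflavone, casein, 3:1 high-isoflavone and conventional soybean, the rats of neighbours overlapped in each case.

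Slc25a20, the carnitine-acylcarnitine carrier of the inner membrane, varied little. Its means were 4.86 ± 0.178 log2 on the 3:1 high-isoflavone diet, 4.84 ± 0.101 on the 1:1 diet, 4.71 ± 0.121 on conventional soybean and 4.88 ± 0.112 on casein (SD, n = 5 each). All 4 groups overlapped, and the largest of its differences was −0.17 (95% interval −0.36 to 0.02) for conventional soybean against casein.

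**Figure D2:**
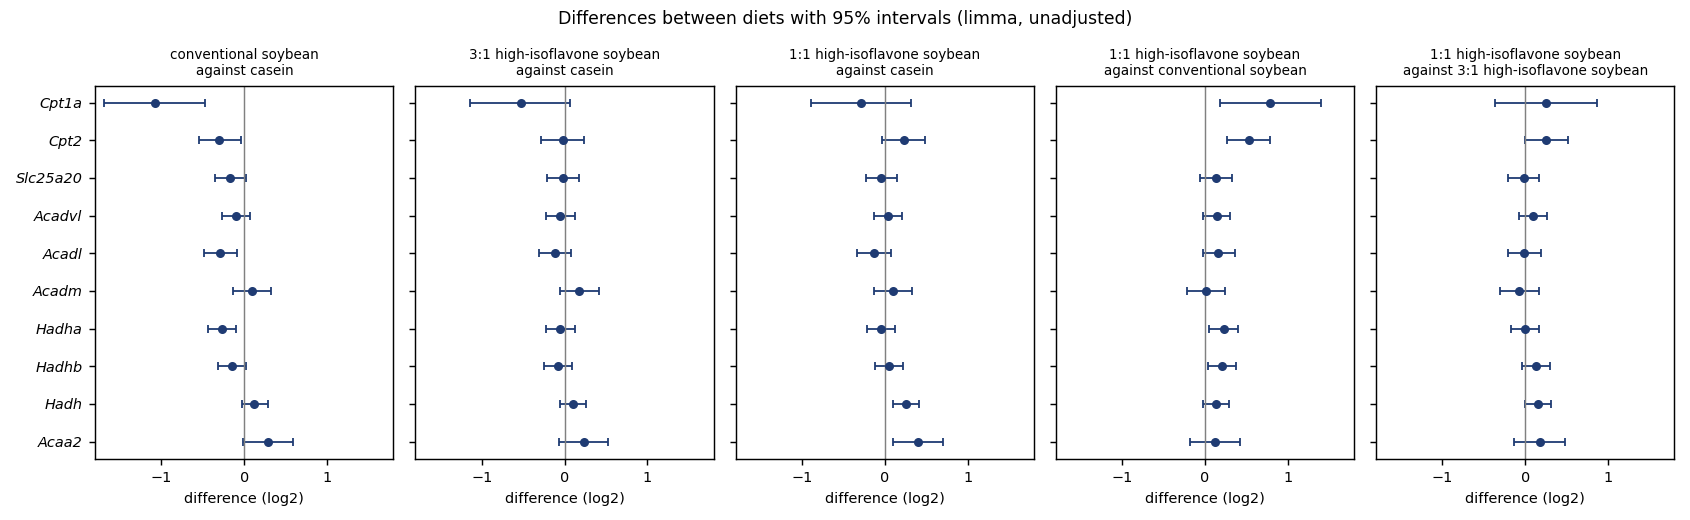
Difference in log2 level of each gene (points) with its unadjusted 95% interval from limma (bars) in the 5 comparisons, the diet named first minus the other. Cpt1a has the widest interval and the lowest point, −1.08 for conventional soybean against casein; in the comparison of 1:1 high-isoflavone with conventional soybean all 10 points are above 0, the smallest at 0.01.

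The acyl-CoA dehydrogenases open each turn of the spiral, Acadvl on very long, Acadl on long and Acadm on medium chains. Acadl was at 7.54, 7.92, 7.53, 7.46 and 7.78 log2 on the 3:1 high-isoflavone diet and 7.46, 7.63, 7.65, 7.78 and 7.62 on the 1:1 high-isoflavone diet. It was at 7.42, 7.62, 7.53, 7.35 and 7.40 on conventional soybean, against 7.78, 7.65, 7.96, 7.53 and 7.86 on casein. The conventional soybean rats were low and overlapped with casein through rats 2 and 3, at 7.62 and 7.53, and casein rat 4, at 7.53. The difference was −0.29 (95% interval −0.49 to −0.09, limma adjusted p 0.120). It passed under 1 of 30 other settings, centring and scaling of each array, at −0.46 with an adjusted p of 0.0432. The 3:1 and 1:1 high-isoflavone diets differed from casein in Acadl by −0.11 (−0.31 to 0.08) and −0.13 (−0.33 to 0.07).

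Acadvl had means of 5.28 ± 0.133 log2 on the 3:1 high-isoflavone diet, 5.38 ± 0.092 on the 1:1 diet, 5.24 ± 0.095 on conventional soybean and 5.34 ± 0.106 on casein (SD, n = 5 each). Acadm had means of 6.36 ± 0.181 on the 3:1 diet, 6.29 ± 0.186 on the 1:1 diet, 6.28 ± 0.175 on conventional soybean and 6.19 ± 0.169 on casein. In both genes all 4 groups overlapped and the intervals of all 5 comparisons included 0. The largest difference of Acadm was 0.18 (95% interval −0.05 to 0.41) for the 3:1 diet against casein, and that of Acadvl was 0.14 (−0.03 to 0.30) for the 1:1 diet against conventional soybean.

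Hadha and Hadhb encode the alpha and beta subunits of the trifunctional protein of the inner membrane. The alpha subunit hydrates and dehydrogenates long chains and the beta subunit is the thiolase. Hadha was at 5.76, 5.90, 5.96, 5.82 and 5.75 log2 on the 3:1 high-isoflavone diet and 5.59, 5.97, 5.83, 5.91 and 5.91 on the 1:1 high-isoflavone diet. It was at 5.58, 5.71, 5.58, 5.56 and 5.65 on conventional soybean, against 5.87, 5.89, 6.10, 5.73 and 5.85 on casein. The conventional soybean rats were the most alike (SD 0.063) and all lay below the casein rats, the highest at 5.71 and the lowest casein rat at 5.73. The difference was −0.27 (SE 0.0827, 95% interval −0.44 to −0.10, limma adjusted p 0.0926), and that of the 1:1 diet against conventional soybean was 0.23 (0.05 to 0.40, limma adjusted p 0.564).

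The other probe sets of Hadha did not share this pattern. The second was at means of 3.12 ± 0.297 log2 on the 3:1 high-isoflavone diet, 3.07 ± 0.387 on the 1:1 diet, 3.15 ± 0.377 on conventional soybean and 2.86 ± 0.380 on casein (SD, n = 5 each). The third was at 1.0 ± 0.169, 1.43 ± 0.333, 1.35 ± 0.195 and 1.03 ± 0.214 on the same diets. For conventional soybean against casein they differed by 0.29 and 0.32, opposite in sign to the brightest probe set, and the mean of all Hadha probe sets differed by 0.11 (limma adjusted p 0.600). Over the 20 arrays they correlated with the brightest probe set at −0.26 and −0.31. Both were dimmer than the brightest probe set, and the third lay below the median of all probe sets on every diet. The direction for Hadha therefore depends on the probe set used, and the part of low signal in this was not tested. Centring and scaling of each array moved the brightest to −0.40 with a limma adjusted p of 0.0159.

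**Figure D3:**
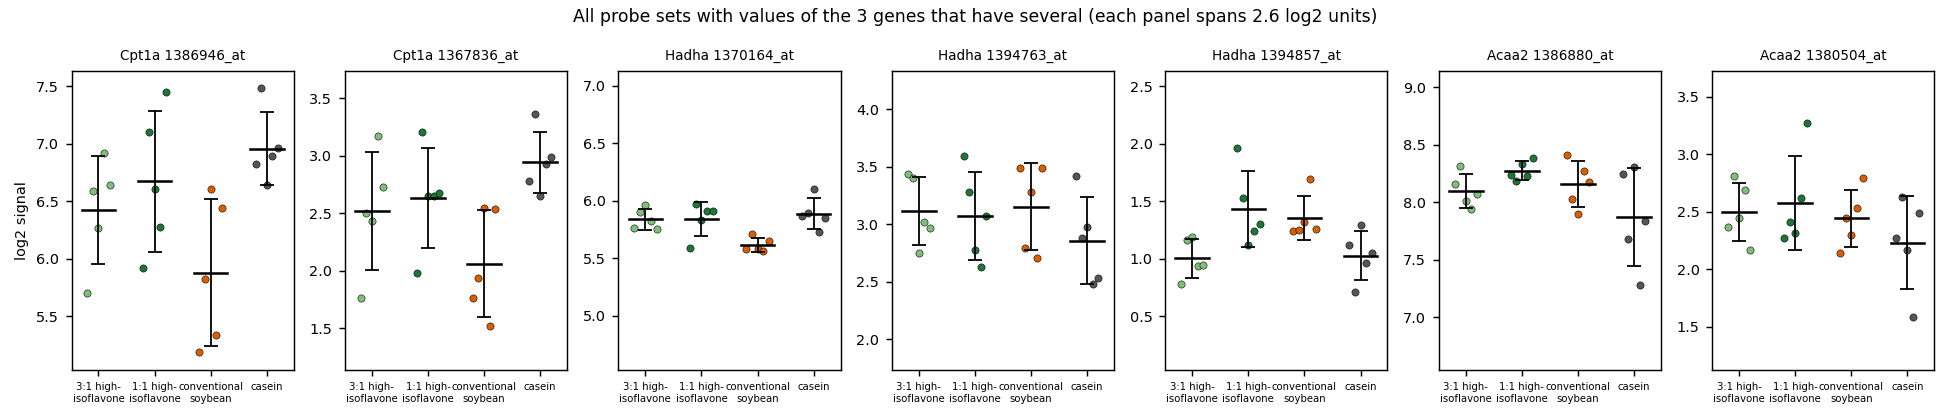
Level in log2 signal of every rat (points) by diet, with mean (line) and SD (bars) of 5 rats, for all probe sets with values of Cpt1a, Hadha and Acaa2, each gene's brightest probe set first. Both Cpt1a probe sets place conventional soybean below casein (−1.08 and −0.88), whereas the Hadha probe sets differ in sign (−0.27, 0.29 and 0.32).

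Hadhb had means of 5.99 ± 0.136 log2 on the 3:1 high-isoflavone diet, 6.12 ± 0.103 on the 1:1 diet, 5.92 ± 0.121 on conventional soybean and 6.07 ± 0.093 on casein (SD, n = 5 each). All groups overlapped. The 1:1 diet was above conventional soybean by 0.20 (95% interval 0.03 to 0.37, limma adjusted p 0.623), and conventional soybean differed from casein by −0.15 (−0.32 to 0.02).

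Hadh encodes the matrix dehydrogenase that acts on hydroxyacyl-CoA of short and medium chains. It was at 7.61, 7.67, 7.64, 7.64 and 7.73 log2 on the 3:1 high-isoflavone diet. It was at 7.82, 7.82, 7.74, 7.93 and 7.75 on the 1:1 high-isoflavone diet and 7.58, 7.77, 7.58, 7.73 and 7.72 on conventional soybean, against 7.64, 7.63, 7.68, 7.27 and 7.57 on casein. Every 1:1 rat was above every casein rat and above every 3:1 rat, while conventional soybean overlapped with all groups. The 1:1 diet differed from casein by 0.25 (SE 0.0743, 95% interval 0.10 to 0.41, a ratio of 1.19), with a limma adjusted p of 0.0758. Without casein rat 4, the lowest of the 20, the difference was 0.18 with an adjusted p of 0.181. It passed under 1 of 30 other settings, testing only the brighter probe sets, at an adjusted p of 0.0499. The 1:1 diet differed from the 3:1 diet by 0.15 (−0.00 to 0.31, limma adjusted p 0.689).

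Acaa2 encodes the matrix thiolase that releases acetyl-CoA. It was at 8.16, 8.32, 8.01, 7.94 and 8.07 log2 on the 3:1 high-isoflavone diet. It was at 8.24, 8.19, 8.33, 8.23 and 8.39 on the 1:1 high-isoflavone diet and 8.41, 8.03, 7.90, 8.27 and 8.18 on conventional soybean, against 8.25, 7.68, 8.31, 7.28 and 7.84 on casein. The casein rats spread most (SD 0.426) and the 1:1 rats least (SD 0.083), and all groups overlapped. The 1:1 diet differed from casein by 0.40 (95% interval 0.10 to 0.70, limma adjusted p 0.153), and by 0.25 without casein rat 4. A second, dimmer Acaa2 probe set differed by 0.35 (−0.06 to 0.76) in the same comparison and correlated with the first at 0.43 over the 20 arrays.

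Rats of the same diet differed more in Cpt1a than in the other 9 genes. The within-diet SD of Cpt1a was 0.525 log2, above that of 97.2% of the probe sets brighter than the median, whose median SD was 0.205. Acaa2 (0.250) was also above that median, and Cpt2 (0.201) was just below it. Hadh (0.104), Acadvl (0.108), Hadhb (0.114) and Hadha (0.115) varied least, with 4.1% to 6.7% of those probe sets varying less. Single rats stood at an end of their group for many genes together. Rat 1 of the 1:1 high-isoflavone diet was the lowest of its group in 8 of 10 genes, and rat 1 of the 3:1 diet in 6. Casein rat 3 was the highest of its group in 9 of 10 genes and casein rat 4 the lowest in 6. The 3′ minus 5′ signal of the actin controls, a measure of RNA quality, ran between 1.071 and 2.134 log2 over the arrays. It was 2.134 in 3:1 rat 1, 1.431 in 1:1 rat 1, 1.286 in casein rat 3 and 1.533 in casein rat 4. That of the GAPDH controls was 0.937, 0.914, 0.895 and 0.845 in these rats. The part of RNA quality in these extremes was not tested.

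With diet means removed, 39 of the 45 gene pairs had a Pearson correlation above 0 over the 20 rats, with a median of 0.33 and a range of −0.30 to 0.70. The arrays share their normalization and RNA quality across genes, and the part of these in the correlations was not tested. None of the 45 pairs passed on Pearson's r in a permutation test of rats within diets (100000 resamples, two-sided, Benjamini-Hochberg over the pairs). On Spearman's rho 1 of 45 passed, Acadvl and Hadha. This pair had the highest value, r = 0.70 (permutation p = 0.00129, adjusted p = 0.058) and rho = 0.76 (permutation p = 0.00041, adjusted p = 0.0185), and r = 0.68 without the 2 rats farthest from the median of Acadvl. Hadha and Hadhb, which share the promoter stretch shown above, had r = 0.63 (permutation p = 0.00526, adjusted p = 0.118) and rho = 0.57 (adjusted p = 0.147), and r = 0.45 without the 2 farthest rats. The Hadha values are those of its brightest probe set, with which its other probe sets correlated at −0.16 and −0.12 with diet means removed. Cpt1a and Acaa2 had the lowest value, r = −0.30.

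**Figure D4:**
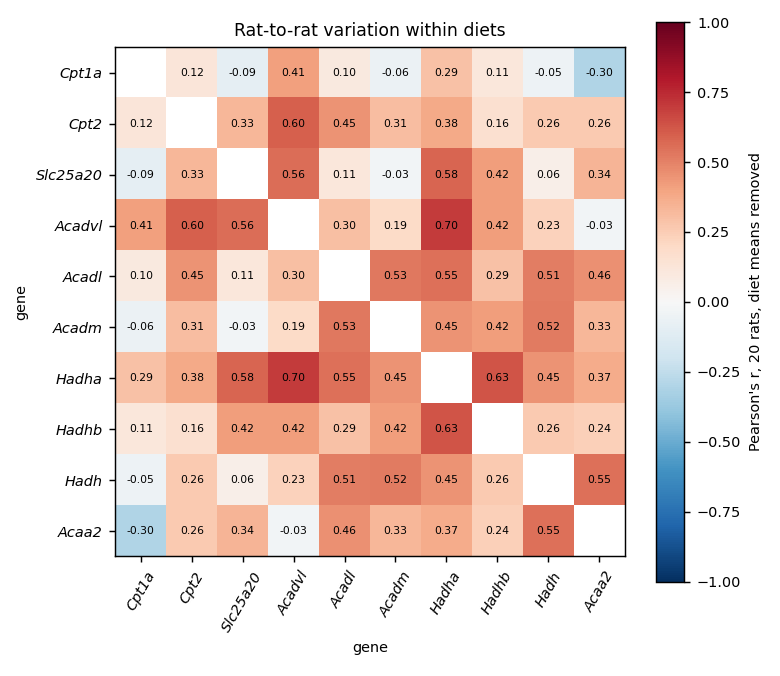
Pearson correlation of each pair of the 10 genes over 20 rats after the mean of each diet was removed, as colour and number. Most pairs are above 0, with the highest value between Acadvl and Hadha (0.70), while Cpt1a is below 0 with 4 of the other 9 genes and reaches −0.30 with Acaa2.

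Against the mean of the other 9 genes over the 20 arrays, each gene scaled to its own SD, Hadha correlated most (0.82) and Acaa2 least (0.24), with Cpt1a at 0.33. With diet means removed Hadha was again highest (0.84) and Cpt1a lowest (0.09). Among 8403 other genes brighter than the median, those whose pattern over the 20 arrays was most like the mean of the 10 genes were Eci1 (Pearson correlation 0.89), Acot2 (0.87), Acsl1 (0.84), Cyp4a1 (0.81) and Pank1 (0.79). Eci1 encodes a mitochondrial enoyl-CoA isomerase, Acot2 a mitochondrial acyl-CoA thioesterase and Acsl1 a long-chain acyl-CoA synthetase. Cyp4a1 encodes a fatty acid omega-hydroxylase and Pank1 a pantothenate kinase of CoA synthesis. With diet means removed the list was Eci1 (0.83), Acot2 (0.83), Cyp4a1 (0.81), Acsl1 (0.79) and Vps54 (0.78), a subunit of a vesicle tethering complex. All points come from the same 20 arrays, so these values describe the arrays and carry no test.

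Eci1 was at 6.54 ± 0.259 log2 on the 3:1 high-isoflavone diet, 6.80 ± 0.342 on the 1:1 diet, 6.26 ± 0.206 on conventional soybean and 6.53 ± 0.349 on casein (SD, n = 5 each), and its second probe set differed from casein by 0.19 on conventional soybean, where the first differed by −0.28. Acot2 was at 4.04 ± 0.411 on the 3:1 diet, 4.11 ± 0.532 on the 1:1 diet, 3.38 ± 0.274 on conventional soybean and 4.08 ± 0.412 on casein. Its lowest group was conventional soybean, as in Eci1, but neither gene passed in any comparison.

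**Figure D5:**
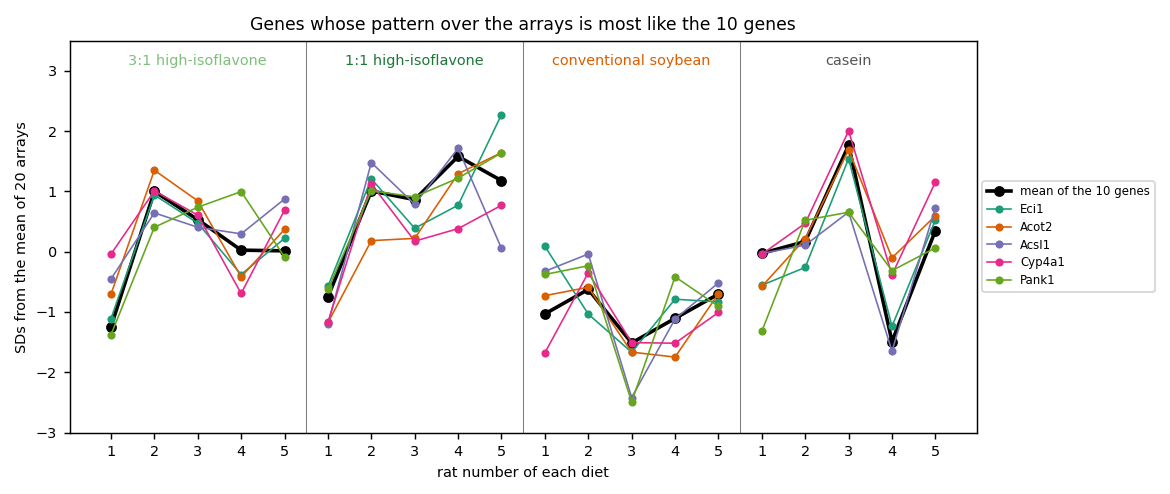
Level over the 20 arrays, in SDs from the mean of all arrays, of the mean of the 10 genes (black) and of the 5 genes most like it (Pearson correlation 0.79 to 0.89), by diet and rat. The black line is below 0 in all 5 conventional soybean rats, and among casein rats it is highest in rat 3 and lowest in rat 4, where Acot2 and Pank1 are instead lowest in rat 1 and Acsl1 is highest in rat 5.

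The steps around the pathway were read from lists of 96 measured genes of 109 listed, members included. Of 16 other mitochondrial oxidation enzymes, 0 passed in any comparison, and the median difference was −0.10 on conventional soybean against casein. Crat, which moves short acyl groups onto carnitine, had a smaller mean on conventional soybean (2.50) than on casein (2.94), and it was at 3.04 on the 1:1 diet, a difference of 0.54 from conventional soybean (limma adjusted p 0.406).

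Of 12 genes of fatty acid uptake, activation and carnitine supply, 1 fell on conventional soybean and 2 fell on the 1:1 high-isoflavone diet, both against casein, and 0 rose. Acsl5, a long-chain acyl-CoA synthetase, averaged 6.39 ± 0.166 log2 on the 1:1 diet and 6.70 ± 0.253 on conventional soybean, against 7.33 ± 0.086 on casein (SD, n = 5 each). It fell by 0.94 (limma adjusted p 0.000207) and by 0.63 (adjusted p 0.0105), and its second probe set differed by −0.95 and −0.64. On the 3:1 diet Acsl5 averaged 6.85, −0.47 from casein (adjusted p 0.178). Fabp1, the liver fatty acid binding protein, fell by 0.53 on the 1:1 diet, with 8.59 ± 0.231, against 9.12 ± 0.060 on casein (limma adjusted p 0.0102), and it did not pass without rat 1 of each diet (−0.45, adjusted p 0.0595).

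Malonyl-CoA is made by the carboxylases Acaca and Acacb, and the Acacb product is known to act at the mitochondrial surface near carnitine palmitoyltransferase 1. Of 7 genes of malonyl-CoA control, these 2 fell against casein on conventional soybean and on the 1:1 high-isoflavone diet, and 0 rose. Acacb averaged 2.6 ± 0.163 log2 on the 1:1 diet and 2.68 ± 0.101 on conventional soybean, against 3.49 ± 0.231 on casein (SD, n = 5 each). It fell by 0.89 (limma adjusted p 0.000618) and by 0.80 (adjusted p 0.00317), with no overlap of the rats, and was at 3.05 ± 0.255 on the 3:1 diet (−0.44, adjusted p 0.260). Acaca fell by 1.24 on both diets (limma adjusted p 0.0171 on the 1:1 diet and 0.0246 on conventional soybean), but its second probe set differed by 0.02 and by −0.00. The Acaca call was lost under 3 and 7 of 30 other settings. On the 3:1 diet Acaca differed from casein by −1.07 without a call (limma adjusted p 0.178), and its second probe set by 0.04.

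Of 12 measured regulators of the pathway of 14 listed, 0 passed in any comparison. Ppara and Sirt1 were not analysed here. Fgf21, a fasting hormone of the liver that PPAR-alpha is known to induce, averaged 1.48 ± 0.558 log2 on conventional soybean, against 2.79 ± 0.975 on casein (SD, n = 5 each), a difference of −1.31 (limma adjusted p 0.0555). The rats overlapped (0.82 to 2.12 against 1.67 to 3.81), and all conventional soybean rats were below the median of all probe sets of their arrays. Foxo1, an insulin-restrained transcription factor, was at 2.85 and 2.43 on the same diets (0.42, adjusted p 0.1002), and its other probe sets differed by 0.03 and −0.03.

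Of 11 measured genes of peroxisomal oxidation of 16 listed, 0 passed. All 11 differences of the 1:1 high-isoflavone from the conventional soybean diet were above 0, with a median of 0.20. Over all probe sets the median was −0.02, and 53.8% were below 0. Pex11a, a peroxisome membrane protein, was at 3.01 ± 0.316 log2 on conventional soybean, against 3.68 ± 0.321 on casein (SD, n = 5 each; −0.67, limma adjusted p 0.0716), and its second probe set differed by −0.36 (adjusted p 0.434). Crot, which moves medium-chain acyl groups onto carnitine in peroxisomes, was at 5.33 ± 0.804 on the 1:1 diet, against 4.18 ± 0.775 on casein (1.15, adjusted p 0.0932). Its other probe sets differed by 0.94 (adjusted p 0.140) and 0.17 (adjusted p 0.795). Of 5 measured omega-oxidation genes of 7 listed, 1 fell on conventional soybean against casein and 0 passed elsewhere. Cyp4a1 fell by 0.77, with 6.16 ± 0.225 on conventional soybean, against 6.93 ± 0.396 on casein (limma adjusted p 0.0388), and the call was lost under 10 of 30 other settings. Cyp4a3, another omega-hydroxylase, was at 7.37 ± 0.176 on the 1:1 diet, against 6.53 ± 0.575 on conventional soybean (0.84, adjusted p 0.260). Both measured ketone body genes of 4 listed were without a call: Bdh1, the ketone dehydrogenase, differed by 0.23 (0.03 in its second probe set) and Oxct1, which uses ketone bodies outside the liver, by 0.47 on conventional soybean against casein.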

How the data were processed

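RNA from 20 livers was labelled from the 3′ end (in vitro transcription) and read on Affymetrix rat arrays. The authors deposited 1 table of values on a log10 scale, normalized with the SuperNORM data service, per the labels. No source used here states its version, how probes were summarized or a genome build. The log base was inferred: the signal of spiked controls followed their relative amounts with a log10 slope of 0.997 (SD 0.0242 over 20 arrays). The log10 values were multiplied by 3.322 to give log2. Of 31099 probe sets, 57 controls and 3342 without values (2 in both) were left out, leaving 27702, of which 19147 had 1 gene symbol, 404 several and 8151 none listed. Genes were named only from probe sets with 1 symbol and represented by the brightest. Arrays were grouped by title, matched to the diet descriptions by wording. No array pair held identical values.

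Diets were compared in R 4.3.3 by limma 3.58.1 (a mean for each diet, all 20 arrays in the fit, eBayes with a trend, two-sided, Benjamini-Hochberg over 27702 probe sets), which was tested on simulated data. The number of arrays limits the precision. Gene lists were described by counts and medians only. The members, lists and alternatives were chosen with earlier results of these data known. All members are named; of the other lists, genes that passed or else the 2 with the smallest p. The 5 genes most like the members were taken by Pearson correlation across and within diets. The 30 alternatives were array scaling, probe filters and summaries, the variance model, the arrays fitted, a replicate block and leaving out each array.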

Additional observations from a re-analysis of the deposited data

Results flagged for a closer look

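Hadh, the matrix hydroxyacyl-CoA dehydrogenase gene, was at 7.27 log2 in casein rat 4, while the other 4 casein rats lay between 7.57 and 7.68, a gap of 0.732 of the range of the group. Of the 40 groups of 5 rats checked (10 genes in 4 diets) this was the 1 flagged. Chance gives about 1 flag in every 20 groups, so 1 flag in 40 groups is no more than chance gives. The same rat was the lowest of its diet in 6 of the 10 genes.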

How the results depend on the processing

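Over 30 other settings each, the 10 genes kept 0 calls in the comparisons other than those of conventional soybean and 1:1 high-isoflavone with casein. For conventional soybean against casein 3 were called after centring and scaling of each array, 1 when only probe sets above the median were tested, 1 with a replicate block and 0 to 1 without single arrays, Cpt1a except where centring added Acadl and Hadha. For the 1:1 diet against casein 1, Hadh, was called when only probe sets above the median were tested. Under centring and scaling Acadm (−0.05) and Hadh (−0.04) on conventional soybean, and Acadm (−0.03), Acadvl (−0.07) and Hadhb (−0.08) on the 1:1 diet, were below casein, without a call. The replicate numbers were not taken as pairs, since the labels name no such design. Of 30 correlations of same-numbered deviations 12 were over 0.1 and 12 below 0 (−0.163 to 0.401), and 7 of 20 arrays were nearest to their own number. These values do not settle the choice. For conventional soybean against casein, the limma adjusted p of Cpt1a was 0.0221 with the block and 0.0648 in the main fit without it. Cpt1a was also called under some of the other settings that had no block, as given above. All pairs of number 1 correlated, at 0.203 to 0.401, and what these rats share is not stated in the labels. With the replicate block 591, 659, 23 and 23 probe sets were called for conventional soybean against casein, 1:1 against casein, 1:1 against conventional soybean and 3:1 against casein. For 3:1 against casein, 11 probe sets were called, and 7 after quantile normalization, 6 after centring, 19 above the median only, 3 without the trend, 5 with the compared diets only, 4 without both arrays of a higher floor, 6 without rat 1 of each diet and 1 to 26 without single arrays. For 1:1 against conventional soybean, 21 were called, and 13 after centring, 12 with the compared diets only, 13 without rat 1 of each diet and 11 to 31 without single arrays. For conventional soybean against casein, 453 were called, and 114 without the higher-floor arrays and 120 to 499 without single arrays. For 1:1 against casein, 613 were called, and 312 without the higher-floor arrays, 380 without rat 1 of each diet and 296 to 716 without single arrays. For 1:1 against 3:1, 0 were called, and 0 to 1 without single arrays. The cause of these shifts was not tested. The share of calls that were higher was 62.03%, 35.4% after quantile normalization and 25.08% after centring for conventional soybean against casein. It was 51.71%, 38.59% and 27.65% for 1:1 against casein, and 54.55%, 28.57% and 16.67% for 3:1 against casein.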

Other observations

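Acetyl-CoA from the spiral enters the citric acid cycle, of which 15 of 17 listed genes were measured. On conventional soybean against casein 2 rose and 1 fell, on the 1:1 high-isoflavone diet against casein 2 rose and 0 fell, and 0 passed in the other comparisons. Suclg2, a subunit of the GTP-forming succinyl-CoA ligase, averaged 6.18 ± 0.053 log2 on the 1:1 diet and 6.09 ± 0.104 on conventional soybean, against 5.74 ± 0.146 on casein (SD, n = 5 each). It rose by 0.43 (limma adjusted p 0.00808) and by 0.34 (adjusted p 0.0388), and the calls were lost under 1 and 12 of 30 other settings, among them centring and scaling of each array (0.30 and 0.21). On the 3:1 diet Suclg2 averaged 6.08 and differed from casein by 0.33, without a call (limma adjusted p 0.171). Idh2, the mitochondrial NADP-dependent isocitrate dehydrogenase, averaged 5.26 ± 0.293 on the 1:1 diet and 5.36 ± 0.202 on conventional soybean, against 4.76 ± 0.172 on casein. It rose by 0.50 (limma adjusted p 0.0482) and by 0.60 (adjusted p 0.0256), and the calls were lost under 20 and 9 of 30 other settings. Ogdh, a subunit of the oxoglutarate dehydrogenase complex, fell by 0.45 on conventional soybean, with 4.13 ± 0.133, against 4.59 ± 0.148 on casein (limma adjusted p 0.0221), and the call was lost under 4 of 30 other settings.

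Of 6 muscle and heart isoforms measured, 0 passed in any comparison. Cpt1b, the muscle form of carnitine palmitoyltransferase 1, lay at 0.80 log2 on the 1:1 high-isoflavone diet and 1.08 on conventional soybean (−0.28, limma adjusted p 0.842), below the median of all probe sets on every diet. Myh7, a heart myosin, differed by 0.46 on the 1:1 diet against casein (adjusted p 0.165), and its second probe set by −0.14.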
